A study of Mus musculus with 5 samples.

Results

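The 7 genes of the Arp2/3 complex carried in the list (Actr2, Actr3, Arpc1b, Arpc2, Arpc3, Arpc4 and Arpc5) and 3 core actin genes (Actb, Cfl1 and Pfn1) were followed in RNA from sorted mouse hematopoietic stem cells (HSCs). They were taken by gene name as 10 of the 24046 symbols of the deposited table. On GRCm38, Actr3, Arpc2 and Arpc5 lie on chromosome 1, Arpc1b, Arpc3 and Actb on chromosome 5, Arpc4 on chromosome 6, Actr2 and Pfn1 on chromosome 11 and Cfl1 on chromosome 19. All cells carried Syncrip flox/flox alleles, in which the gene of the RNA-binding protein SYNCRIP can be deleted. Marrow with the genotype Syncrip flox/flox, Mx1 Cre- (WT; WT 1, WT 2 and WT 3) was compared with Syncrip flox/flox, Mx1 Cre+ marrow (KO; KO 2 and KO 3). Marrow of both genotypes was transplanted into lethally irradiated CD45.1 congenic recipients, and every recipient received polyinosinic:polycytidylic acid (pIpC), the interferon inducer that switches on the Mx1 promoter. Per the study's methods, donors and recipients were 6 to 8 weeks old and pIpC was given at 10 mg/kg on 2 days in a row. HSCs were sorted as CD45.2+, Lin-, Sca1+, cKit+, CD150+ and CD48- cells 9 weeks after transplant and 3 weeks after pIpC. Cre under the Mx1 promoter is not confined to HSCs, and neither the labels nor the methods say whether a library came from 1 mouse or from a pool, so that p-values measure the spread between these libraries.

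The Arp2/3 complex builds branched actin networks. Its Arp2 and Arp3 subunits resemble actin and together act as the start of a daughter filament, which grows from the side of an existing filament once a nucleation promoting factor such as WASP or WAVE has switched the complex on. The ARPC2 and ARPC4 subunits form its structural core, ARPC1B is the form of the WD-repeat subunit that prevails in hematopoietic cells, and ARPC3 and ARPC5 are small subunits that tie the complex together. Beta-actin (Actb) is the filament's building block, cofilin-1 (Cfl1) severs and disassembles old filaments, and profilin-1 (Pfn1) loads actin monomers for growth. Branched actin serves cell movement, adhesion, endocytosis and the immune synapse, and blood cells express its subunits at high levels.

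The deposited values were reads divided by a size factor per library (normalized reads). Library totals were 21748781 to 22779536 reads in WT and 18308876 and 12539599 in KO 2 and KO 3, so that depth was lower in both KO libraries. Syncrip stood at 1944, 1439.8 and 1794 normalized reads in WT and at 294 and 343 in KO, a log2 fold change of -2.43 ± 0.22 (SE; limma adjusted p = 0.0352), in the direction of the labels. The 10 HSC markers, Kit, Mecom, Hlf and Procr among them, were present in every library and took 0.0665 to 0.115% of the reads in WT, 0.0798% in KO 2 and 0.139% in KO 3. In KO 3, 8 of the 10 lay above every WT library (Mecom at 1151 normalized reads, 279 to 821 in WT), and in KO 2 none did. Granule genes of the neutrophil lineage were present too, both primary granule genes, which myeloid progenitors express (Mpo, Elane, Prtn3 and Ctsg), and secondary granule genes of later stages (Ltf, Camp and Ngp). With other myeloid genes these made up 12 markers, which took 6.2 to 7.5% of the reads in WT, 5.49% in KO 2 and 2.65% in KO 3. Of the 12, 6 lay below every WT library in KO 2, Ltf, Camp and Ngp among them, and 4 lay inside the WT range, Mpo and Ctsg among them. Elane and Prtn3 were above every WT library in KO 2, at 107246 and 36288 normalized reads. In KO 3, 10 lay below WT, and Elane and Prtn3 lay inside its range. The summed share of 7 megakaryocyte and platelet markers ran in the other direction, at 0.0333 to 0.0575% of the reads in WT, 0.0636% in KO 2 and 0.145% in KO 3. In KO 2, though, Ppbp at 13.4 normalized reads was below every WT library, and Itga2b and Itgb3 lay inside the WT range. The 6 measured genes of a list of surface markers for the gate took 0.0232 to 0.0294% in WT, 0.0135% in KO 2 and 0.00818% in KO 3. Most of that was Ptprc, the gene of CD45, which the sorted cells carry, at 3735 to 4635 normalized reads in WT and 2010 and 1271 in KO, and Cd48 was at 601 to 768 in WT and 459 and 191 in KO. The 8 erythroid markers took 0.131 to 0.19% in WT, 0.138% in KO 2, inside that range, and 0.0856% in KO 3. In KO 2, though, 5 of the 8 lay above every WT library, 2 below and 1 inside the WT range. Hba-a1 was at 2169 normalized reads there, and at 827 to 1358 in WT. In KO 3, 6 of the 8 lay below every WT library and Klf1, at 7671 normalized reads, above. Hba-a1 and Hba-a2, near-identical copies, hold the same values in every library. The 8 adipocyte markers took 0.109% in KO 2 and 0.00115 to 0.00391% in each of the remaining libraries, where Ucp1, a brown fat gene, was at 0 and KO 2 had 5622 normalized reads of it. In bulk RNA, fewer cells of a type and less RNA per cell cannot be told apart.

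The promoters of the 3 subunits with the lowest KO to WT ratios, and of the 2 genes whose KO values both lay above WT, are shown, so that their bases can be read beside the values that follow. Each run is the 250 bases before the RefSeq start site (GRCm38.p6), 5′ to 3′ on the strand of the gene. Capitals mark 5 motifs on either strand: the Sp1 site GGGCGG, the NF-Y site CCAAT, the TBP site TATAAA, the ETS site CCGGAAG, and the CArG box of serum response factor.
Actr2: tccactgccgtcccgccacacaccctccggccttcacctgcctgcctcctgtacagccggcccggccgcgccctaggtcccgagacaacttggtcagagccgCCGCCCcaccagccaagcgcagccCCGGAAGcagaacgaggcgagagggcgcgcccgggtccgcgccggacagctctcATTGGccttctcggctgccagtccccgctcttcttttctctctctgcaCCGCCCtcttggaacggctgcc
Actr3: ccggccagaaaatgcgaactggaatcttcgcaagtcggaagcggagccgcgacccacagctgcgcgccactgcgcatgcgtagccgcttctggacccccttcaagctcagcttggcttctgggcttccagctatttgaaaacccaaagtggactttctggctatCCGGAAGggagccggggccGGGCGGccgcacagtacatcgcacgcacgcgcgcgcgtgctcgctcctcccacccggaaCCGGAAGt
Arpc5: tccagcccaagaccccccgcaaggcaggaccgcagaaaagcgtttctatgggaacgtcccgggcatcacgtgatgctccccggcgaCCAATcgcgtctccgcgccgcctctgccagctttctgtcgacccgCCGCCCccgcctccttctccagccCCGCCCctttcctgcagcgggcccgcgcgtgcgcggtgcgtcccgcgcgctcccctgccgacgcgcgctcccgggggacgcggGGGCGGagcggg
Cfl1: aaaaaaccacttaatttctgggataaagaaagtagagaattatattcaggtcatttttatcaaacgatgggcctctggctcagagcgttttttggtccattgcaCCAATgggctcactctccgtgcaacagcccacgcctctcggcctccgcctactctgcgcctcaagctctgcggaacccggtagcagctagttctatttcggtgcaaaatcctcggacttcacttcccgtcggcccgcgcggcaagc
Pfn1: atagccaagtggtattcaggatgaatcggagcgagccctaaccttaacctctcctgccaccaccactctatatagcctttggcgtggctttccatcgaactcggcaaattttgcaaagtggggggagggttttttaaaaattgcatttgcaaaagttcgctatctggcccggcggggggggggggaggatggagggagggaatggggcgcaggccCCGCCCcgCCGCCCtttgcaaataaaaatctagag

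The windows are chr11:20112952-20113201 on the minus strand for Actr2, chr1:125435728-125435977 on the minus strand for Actr3, chr1:152766292-152766541 on the plus strand for Arpc5, chr19:5490205-5490454 on the plus strand for Cfl1 and chr11:70654651-70654900 on the minus strand for Pfn1. A window was at hand for 9 of the 10 genes and not for Actb. Among all 32851 windows of this length, 32.7% held GGGCGG, and 6 of the 9 did (Actr2, Actr3, Arpc1b, Arpc2, Arpc5 and Pfn1). CCGGAAG stood in 6.91% of all windows and in 4 of the 9 (Actr2, Actr3, Arpc3 and Arpc4). CCAAT stood in 33.8% of all windows and in those of Actr2, Arpc5 and Cfl1, whereas TATAAA stood in 12.4% of all windows and in none of the 9. The CArG box was found in 1.47% of all windows and in that of Arpc4. The shown promoters of Actr2, Actr3 and Arpc5 are 70%, 64.0% and 74.4% G and C, and those of Cfl1 and Pfn1 are 52.0% and 54.4%, where the median over all windows was 52.4%. A match describes letters and is not a measured site.

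Actr2 and Actr3, which encode the pair of actin-like subunits, had the lowest KO values of the 10 relative to WT, at close to 50% of the WT mean, and Arpc5 followed at 59.5%. The other 4 subunits lay between 86.1% and 120% of WT, and Actb, Cfl1 and Pfn1 between 92% and 119%. None of the 10 passed an adjusted p of 0.05 in the limma fit over 13661 genes, a fit in which 0.00732% of all genes passed, and 3 of the 10 had an unadjusted p under 0.05, against 27.8% of all genes. The edgeR test called none of the 10, with 0.0146% of all genes called. DESeq2, the tool named for the study, called Actr2, Actr3 and Arpc5 as lower in KO and none of the 10 as higher, where 9.46% of all genes it tested were called lower and 9.27% higher. Both KO values lay below all 3 WT values for Actr2, Actr3, Arpc5 and Arpc2, and above them for Cfl1 and Pfn1. Over all tested genes, 23.2% lay below in this way and 23.9% above.

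**Figure D1:**
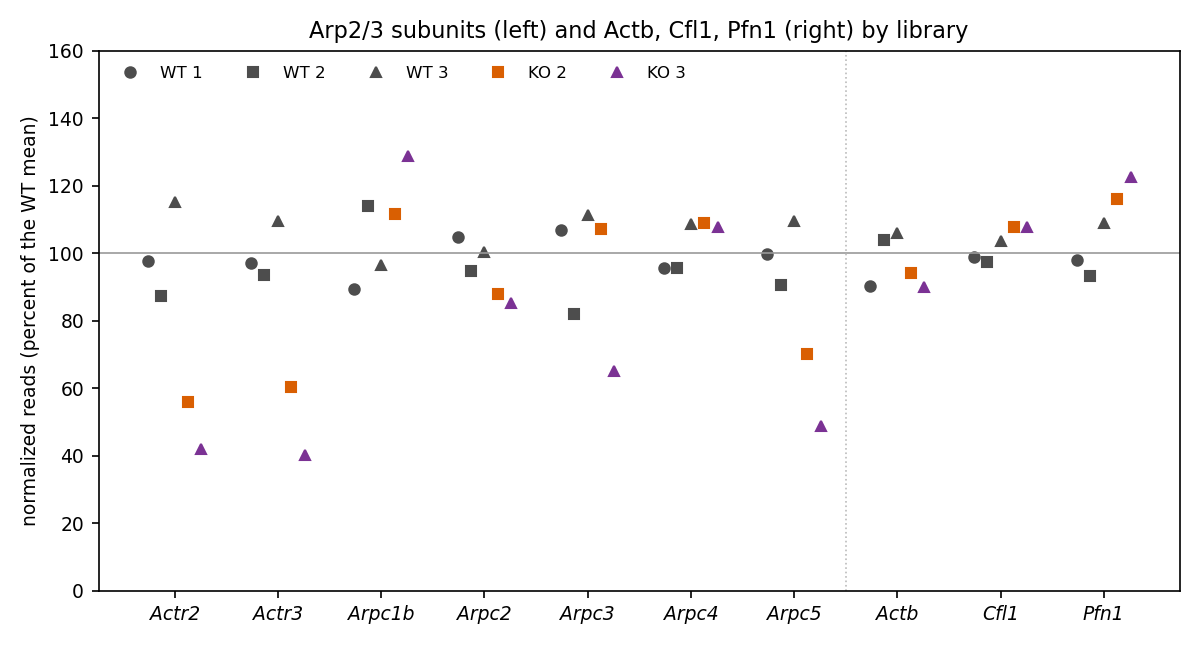
Normalized reads of the 10 genes in each library as a percent of the gene's WT mean (vertical axis), with the 7 Arp2/3 subunits left of the dotted line and Actb, Cfl1 and Pfn1 right of it; each point is 1 library. Actr2, Actr3 and Arpc5 sit between 40.1% and 70.3% in both KO libraries, while Arpc4 and Cfl1 sit there between 108% and 109%.

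Actr2 (Arp2) was at 4632, 4133 and 5455 normalized reads in WT and at 2649 and 1996 in KO. Both KO libraries lay below all WT libraries, KO 2 at 55.9% and KO 3 at 42.1% of the WT mean of 4740.1 ± 668 (SD, n = 3). The log2 fold change was -1.03 ± 0.20 (SE), with an adjusted p of 0.0815 by limma, 0.0926 by edgeR and 4.98e-04 by DESeq2. With a linear trend on transcript length and GC content taken out of each library, it was -0.37 (adjusted p = 0.326 by limma).

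Actr3 (Arp3) was at 11529, 11116 and 13006 in WT and at 7169.9 and 4766 in KO. The groups did not overlap, and KO 3 was again the lower of the pair. Its log2 fold change of -1.02 ± 0.21 was close to that of Actr2, with an adjusted p of 0.0815 by limma, 0.0926 by edgeR and 9.79e-04 by DESeq2, and it was -0.59 with the length and GC trend taken out. Within a library the ratio of Actr2 to Actr3, set to a mean of 1 over WT, was 1.01, 0.935 and 1.05 in WT and 0.929 and 1.05 in KO. The ratio of this pair thus spanned nearly the same range in both genotypes, although each of the genes was at about 50% of its WT level in KO. Other ratios set in this way did not overlap between groups. Actr2 to Arpc5 was 0.966 to 1.05 in WT and 0.797 and 0.867 in KO, and Actr3 to Arpc5 was 0.970 to 1.03 and 0.858 and 0.823. Arpc4 to Arpc2 was 0.911 to 1.08 in WT and 1.24 and 1.26 in KO. Transcript pieces of 50 bases that also occur in another annotated gene made up 49.8% of the longest Actr3 transcript, most of them in the copy Gm8822, and 0.726% of Actr2, so that reads of Actr3 could have been divided, dropped or counted for both genes.

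Arpc5, a small subunit that anchors the Arp2 side of the complex, was at 9204, 8336 and 10097 in WT and at 6474 and 4485 in KO. KO 2 was at 70.3% and KO 3 at 48.7% of the WT mean, both below every WT library. The log2 fold change was -0.77 ± 0.20, with an adjusted p of 0.0846 by limma, 0.0987 by edgeR and 0.0119 by DESeq2, and it was -0.51 with that trend taken out. For these 3 genes KO 3, the shallower library with the smaller summed share of neutrophil and myeloid markers, lay further from WT than KO 2 did. A limma fit without KO 2, the library with the fat transcripts, gave log2 fold changes of -1.24 for Actr2, -1.31 for Actr3 and -1.03 for Arpc5. It leaves 1 KO library, whose spread is taken to be that of the WT group. Without KO 3, which also leaves 1 KO library, the log2 fold changes were -0.83, -0.73 and -0.50.

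The core subunits differed less. Arpc2, which with Arpc4 forms the scaffold, was at 14684, 13279.5 and 14081 in WT and at 12338 and 11948 in KO. Both KO values lay below WT by a narrow margin, by -0.21 ± 0.16 on the log2 scale (adjusted p = 0.426), which turned to 0.04 without the length and GC trend. Arpc4 was at 8934, 8929.7 and 10164 in WT and at 10182 and 10077 in KO. Its groups overlapped at the top of the WT range, and the log2 fold change was 0.12 ± 0.16 (adjusted p = 0.654), which likewise turned, to -0.13.

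Arpc1b, the subunit whose loss in people causes a combined immune and platelet disorder, was at 13629.7, 17411.5 and 14728 in WT and at 17019.7 and 19658 in KO. WT 2 lay above KO 2, and the log2 fold change was 0.27 ± 0.19 with an adjusted p of 0.364, and 0.06 without the length and GC trend. Of its longest transcript, 42.2% of the 50-base pieces also occur in other genes, Pdap1 first among them. Arpc3, a small subunit beside Arp3, was at 5386, 4135.5 and 5610.4 in WT and at 5406 and 3277 in KO. KO 2 lay inside the WT range and KO 3 below it, and the log2 fold change of -0.25 ± 0.25 had an adjusted p of 0.531. Its direction rested on KO 3, and without that library the log2 fold change was 0.11.

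Actb was at 38417, 44238 and 45162 in WT and at 40086 and 38289.5 in KO. One KO value fell inside the WT range and the other just under it, and the log2 fold change was -0.12 ± 0.19 (adjusted p = 0.703), or -0.21 without the length and GC trend. Cfl1 was at 32940.4, 32430.2 and 34519.5 in WT and at 35870.1 and 35884 in KO. The KO values were nearly equal and lay above WT, at 108% of its mean, and the log2 fold change was 0.11 ± 0.17 (adjusted p = 0.706), which turned to -0.0016 without that trend. Pfn1 was at 35919, 34175.5 and 39939 in WT and at 42583 and 44943 in KO. Both KO values lay above WT, by 0.26 ± 0.18 on the log2 scale (adjusted p = 0.381), and the direction turned, to -0.43, without that trend.

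The summed level of the 7 subunits was 67999.5, 67341 and 73142 in WT and 61239 and 56206 in KO. Both KO sums lay below WT, at 84.5% of the WT mean, a log2 difference of -0.24 (exact permutation test over libraries, two-sided p = 0.2, the smallest that 3 against 2 libraries allow). Actr2, Actr3 and Arpc5, grouped after their values were seen and given with no test, summed to 25836 ± 2520 (SD, n = 3) in WT and 13769 ± 3569 (SD, n = 2) in KO. The other 4 subunits summed to 43658 ± 979 in WT and 44953 ± 9.81 in KO. The 10 genes together took 0.961%, 0.944% and 0.987% of the reads in WT and 0.955% and 0.921% in KO, with overlapping groups (exact permutation p = 0.4). The median log2 fold change was -0.25 over the 7 subunits and -0.16 over the 10 genes, beside 0.02 over all tested genes. KO 2 and KO 3 gave medians over the 10 of 0.01 and -0.19 against the WT mean.

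Per kilobase of the longest annotated transcript, the WT levels ran from 22190.3 ± 1905 (SD, n = 3) for Actb, 18366.5 ± 1480.0 for Pfn1 and 14145 ± 463 for Cfl1 down to 1305 ± 184 for Actr2. Arpc2 was the highest subunit at 9739 ± 490 per kilobase. Arpc3, Arpc1b, Arpc5, Actr3 and Arpc4 followed at 5611, 4914, 4813, 4633 and 4116 per kilobase, and the WT range of each overlapped that of its neighbour in this order. Divided by the union of all exons instead, Arpc3 came last but one of the 10 rather than just after Arpc2, so the order in the middle depended on the length used. Arpc2 was highest and Actr2 lowest among subunits in all 5 libraries, and the ratio between them was 6.51 to 8.11 in WT and 11.8 and 15.1 in KO.

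The make-up of the complex's transcripts, as the share of each subunit in the summed per-kilobase level, does not change with 1 scaling factor per library. The shares were not computed under quantile scaling or with the length and GC trend taken out, either of which can change them. With that trend taken out, the log2 fold changes were 0.06 for Arpc1b and -0.13 for Arpc4. Shares add up to a whole, so a fall of some subunits raises the share of the rest. Actr3 held 12.8%, 13.1% and 13.7% in WT and 8.88% and 6.76% in KO. Arpc5 held 13.7%, 13.1% and 14.2% in WT and 10.8% and 8.53% in KO, and Actr2 held 3.63%, 3.43% and 4.05% in WT and 2.32% and 2.0% in KO. These 3 shares were lower in both KO libraries than in any WT library. Arpc1b held 12.5%, 16.9% and 12.8% in WT and 17.4% and 23.0% in KO, and Arpc4 held 11.2%, 11.8% and 12.1% in WT and 14.3% and 16.2% in KO, both above every WT library. The shares of Arpc2 and Arpc3 overlapped between groups. Each of the 5 shares that did not overlap had an exact permutation p of 0.2, adjusted to 0.289 over the 13 shares compared, so none could pass at this size.

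**Figure D2:**
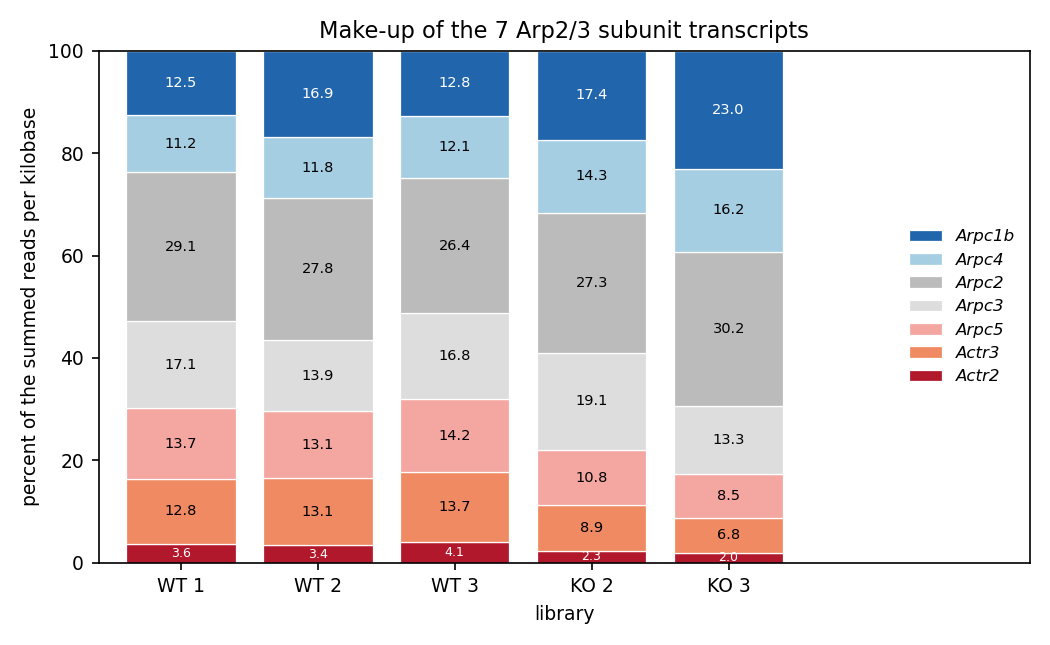
Share of each Arp2/3 subunit in the summed normalized reads per kilobase of the 7 subunits (vertical axis, percent) in each library (horizontal axis); each bar is 1 library and adds up to the whole. Actr2, Actr3 and Arpc5, at the foot, are narrower in KO 2 and KO 3, and Arpc1b, at the top, is widest in KO 3 at 23.0%.

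Several members have a paralogue that can take their place in the complex or share their task. Arpc5l, which stands in for Arpc5, was at 1220.5, 992 and 1134 in WT and at 1137 and 1280.3 in KO, overlapping, with a log2 fold change of 0.12 (adjusted p = 0.714). The share of Arpc5 in the pair, per kilobase, was 94.3%, 94.8% and 95.1% in WT and 92.5% and 88.4% in KO, below WT in both. With RefSeq-matched transcript lengths, 1339 in place of 4167 bases for Arpc5l, the share was 84.1% to 86.2% in WT and 79.9% and 71.0% in KO. Arpc1a, the paralogue of Arpc1b, was at 1097, 1430.3 and 1328 in WT and 1749.6 and 1271 in KO, and the share of Arpc1b in that pair overlapped between groups at 86.6% ± 0.71 (SD, n = 3) and 86.7% ± 3.73 (SD, n = 2). Actr3b, a weakly expressed copy of Actr3, was at 25.8, 4.34 and 21.4 in WT and 27.8 and 62.3 in KO (log2 fold change 1.53, adjusted p = 0.291), and Actr3 made up 98.4% of the pair in KO 3 and more in each of the other libraries.

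Destrin (Dstn), which severs actin filaments as cofilin does, was at 8058, 7223 and 9282 in WT and at 4392 and 1929 in KO. Both KO values lay below WT, by -1.48 ± 0.32 on the log2 scale (adjusted p = 0.0815 by limma and 0.00152 by DESeq2). Cfl1 did not follow it, so that the share of Cfl1 in the pair was 76.8%, 78.5% and 75.1% in WT and 86.9% and 93.8% in KO (exact permutation p = 0.2, adjusted 0.289). Cfl2, the muscle cofilin, was at 216 to 433 normalized reads over the 5 libraries, with overlapping groups. Gamma-actin (Actg1), the other cytoplasmic actin, was at 7813, 8912 and 9329.6 in WT and 7346 and 7677 in KO (log2 fold change -0.21, adjusted p = 0.438). Actb made up 83.3%, 83.5% and 83.1% of the 2 cytoplasmic actins in WT and 84.7% and 83.5% in KO. Actg1 shares 56.7% of its 50-base pieces with other genes. The muscle actins Acta1 and Acta2 and the profilins Pfn2 and Pfn4 stayed at 120 normalized reads or fewer in every library, with overlapping groups.

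**Figure D3:**
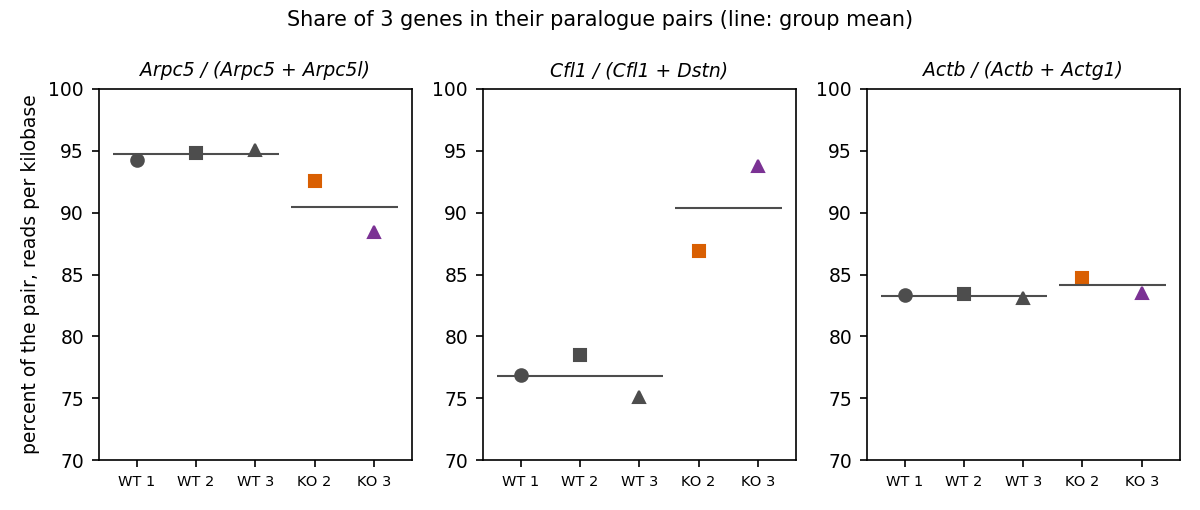
Share of Arpc5, Cfl1 and Actb in the per-kilobase level of each gene and its paralogue (vertical axis, percent, from 70 to 100) in each library; lines are group means. Cfl1 is at 75.1 to 78.5% of its pair with Dstn in WT and at 86.9% and 93.8% in KO, while Actb moves by about 1 point.

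Other genes of the actin system were read from 9 lists of paralogues and regulators, with 102 of 111 genes tested. No gene of these lists passed an adjusted p of 0.05 by limma or by edgeR, and 30 (29.4%) had an unadjusted p under 0.05, beside 27.8% of all genes. Of these, 21 (20.6%) were lower and 9 (8.82%) higher in KO, beside 14.5% and 13.3% of all genes. DESeq2 called 12 of 96 (12.5%) lower and 4 (4.17%) higher, beside 9.46% and 9.27%. Both KO values lay below WT for 31 (30.4%) and above WT for 17 (16.7%) of the 102, beside 23.2% and 23.9% of all genes. The median log2 fold change over the 102 was -0.10.

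Among the 22 tested nucleation promoting factors and their partners, which switch the complex on, 9 (40.9%) lay below WT in both KO libraries and 2 (9.09%) above, beside 23.2% and 23.9% of all genes, with a median of -0.10. Washc4, a subunit of the endosomal WASH complex, had the lowest fold change: it was at 884, 779 and 872 in WT and 403 and 284 in KO (-1.32 ± 0.24; adjusted p = 0.0815 by limma and 1.39e-04 by DESeq2). Jmy, a nucleation factor that also binds p300, had the highest: it was at 309.7, 373 and 355 in WT and 543 and 904 in KO (1.02 ± 0.28; adjusted p = 0.0885 and 0.0105). Was, the blood cell factor mutated in Wiskott-Aldrich syndrome, was at 1635, 1661 and 1714 in WT and 1695 and 1989.5 in KO, with overlapping groups and a log2 fold change of 0.14. Wasl, its widely expressed relative, was at 407 to 495 in WT and 352 and 772 in KO, so that KO 2 and KO 3 lay on opposite sides of WT. Hcls1, the blood cell cortactin that steadies branches, was at 2708 to 2947 in WT and 2622 and 2696 in KO, a log2 fold change of -0.10.

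Proteins that hold the complex back or prune its branches formed a list of 8. Gmfb, a factor that takes branches apart, was at 1945.6, 1771 and 2037 in WT and 887 and 518 in KO (-1.50 ± 0.25; adjusted p = 0.0815 by limma and 4.53e-05 by DESeq2). Pick1, described as an inhibitor of the complex, was at 534, 581 and 449.9 in WT and 734 and 1198 in KO (0.85 ± 0.27; adjusted p = 0.103 and 0.0257). Coro1a, the main coronin of blood cells, was at 23135, 26079 and 25849.8 in WT and 29805 and 31803 in KO, above WT in both, by 0.30 on the log2 scale (adjusted p = 0.286). With the length and GC trend taken out, Coro1a turned to -0.29 and the median of the 8 from 0.32 to -0.10.

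Capza2, the alpha subunit of a protein that caps growing ends, was at 6538, 3803 and 5400.5 in WT and 2456 and 1268 in KO (-1.54 ± 0.32; adjusted p = 0.0815 by limma and 5.85e-04 by DESeq2). Capg, a capping protein of the gelsolin family, was highest in that list of 7 at a log2 fold change of 0.55. Thymosin beta-4 (Tmsb4x), which holds actin monomers in reserve, was at 52307, 40899.9 and 55590.1 in WT and 34496 and 18405 in KO (-0.96 ± 0.29; adjusted p = 0.0936 and 0.0182). Pfn1, whose product also binds monomers, lay above WT in the same libraries (limma adjusted p = 0.381). With the length and GC trend taken out, its log2 fold change turned to -0.43, and that of Tmsb4x was -0.77. A link between the levels of these genes was not tested. Ssh3, a cofilin phosphatase at 47.1 normalized reads or fewer, had the highest fold change of the 12 turnover and monomer genes, at 1.31. Of the formins, which build unbranched filaments, Diaph2 was lowest at -0.91 (adjusted p = 0.129) and Inf2 highest at 1.57 (adjusted p = 0.0902 by limma and 0.0193 by DESeq2). Of the 22 crosslinkers, myosins and membrane linkers, Pls3 was lowest at -1.22 and Fscn1 highest at 2.16, both at under 160 normalized reads in every library.

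Cdc42, the small GTPase that switches on WASP and sets polarity in HSCs, was at 13414, 10825 and 13164 in WT and 7865 and 5042 in KO (-0.98 ± 0.22; adjusted p = 0.0815 by limma and 0.00332 by DESeq2), and its log2 fold change was -0.45 with the length and GC trend taken out. Rac1, which acts through WAVE, was at 8214 to 8313 in WT and 7363 and 8116 in KO, a log2 fold change of -0.10. Rac2, the Rac of blood cells, was at 20200.6 to 24381 in WT and 22921 and 15188.5 in KO, with overlapping groups. Rhoa was at 5847 to 7109 in WT and 5517 and 4005 in KO (-0.49, adjusted p = 0.156), and Rhoc, the highest of the list at 1.04, was at 80.2 normalized reads or fewer. Serum response factor (Srf), which drives actin gene transcription with its partners Mrtfa and Mrtfb, was at 1091, 1341 and 1175 in WT and 1524 and 2360.1 in KO (0.66 ± 0.23; adjusted p = 0.119 by limma and 0.0462 by DESeq2), and turned to -0.41 with the length and GC trend taken out. Mrtfb had a log2 fold change of -0.02.

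**Figure D4:**
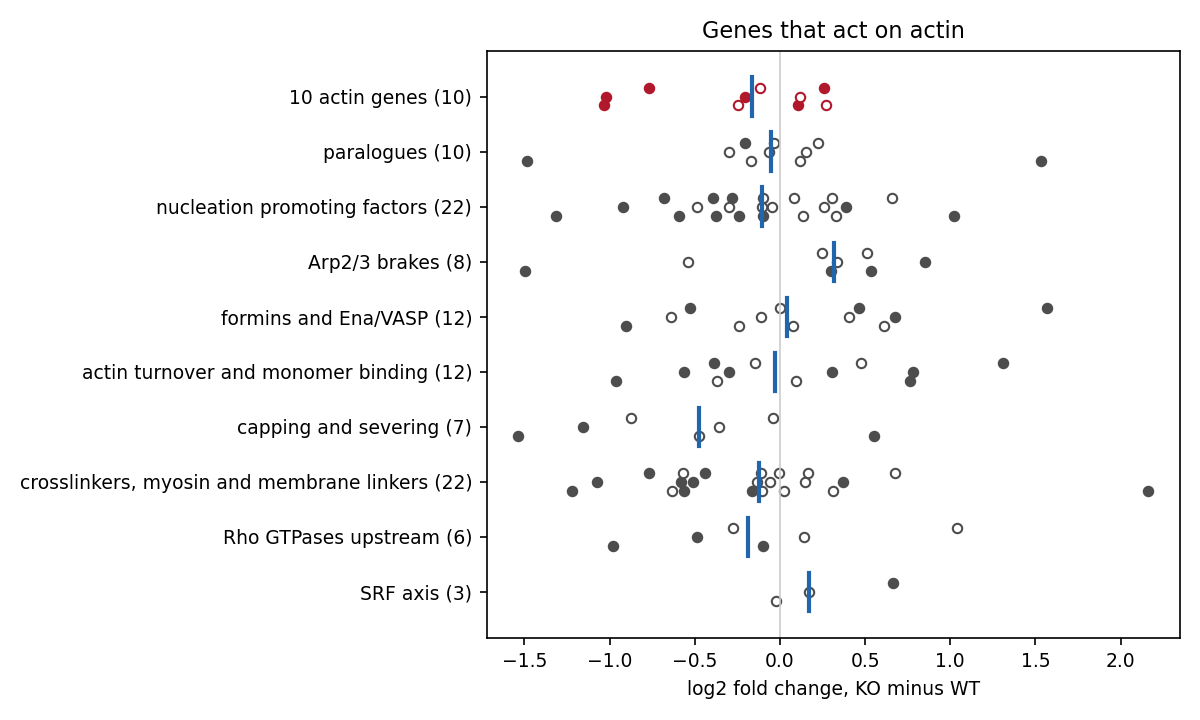
Log2 fold change, KO minus WT (horizontal axis), of the 10 genes in red and of 9 lists of related actin genes in grey, with the number tested in brackets; filled points are genes whose KO and WT values do not overlap, open points those that overlap, and blue lines the list medians. Medians lie between -0.48 (capping and severing) and 0.32 (Arp2/3 brakes), and every list has members on both sides of 0. With the length and GC trend taken out, the medians of the Arp2/3 brakes (-0.10), the formins (-0.14), the SRF axis (-0.41) and the paralogues (0.05) turn.

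Over all genes, fold changes followed the GC content of the transcript: the median ran from -0.76 in the decile of genes with the lowest GC content to 0.73 in the decile with the highest. The 10 genes were spread over that range. Actr2, Actr3 and Arpc5 had transcripts of 40.3%, 43.8% and 46.2% G and C, in deciles with median log2 fold changes of -0.76, -0.53 and -0.21, and each lay lower than the median of its decile. Arpc2 at 46.6% matched its decile, -0.21 beside -0.21, and Arpc1b at 52.5% lay near its own, 0.27 beside 0.21. Pfn1 at 59.2% lay below its decile too, 0.26 beside 0.73. So did Arpc3, -0.25 beside -0.05, Actb, -0.12 beside 0.06, and Arpc4, 0.12 beside 0.21. With the linear trend on length and GC content taken out, the log2 fold changes were -0.37 ± 0.17 for Actr2, -0.59 ± 0.18 for Actr3 and -0.51 ± 0.17 for Arpc5, with limma adjusted p of 0.326, 0.219 and 0.237. Under that correction Arpc2, Arpc4, Cfl1 and Pfn1 turned, as given above, and Syncrip was at -1.55 (adjusted p = 0.156). Of the 102 related genes, 21 turned from higher to lower and 6 from lower to higher, Was (-0.30) and Cfl2 (0.62) among them, while Washc4 was at -0.63, Gmfb at -0.76, Capza2 at -0.56, Dstn at -1.18, Tmsb4x at -0.77 and Inf2 at 0.78. The decile with the lowest GC content stood at -0.55 in KO 2 and -0.99 in KO 3 against the WT mean. Depth and the summed share of neutrophil and myeloid markers were likewise lower in KO 2 than in WT and lowest in KO 3, the order in which Actr2, Actr3 and Arpc5 ran. So was the share of the surface markers for the gate, the summed erythroid share was lowest and the summed HSC marker share highest in KO 3, and the summed share of megakaryocyte and platelet markers ran in the opposite order. The part of these in the results was not tested.

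**Figure D5:**
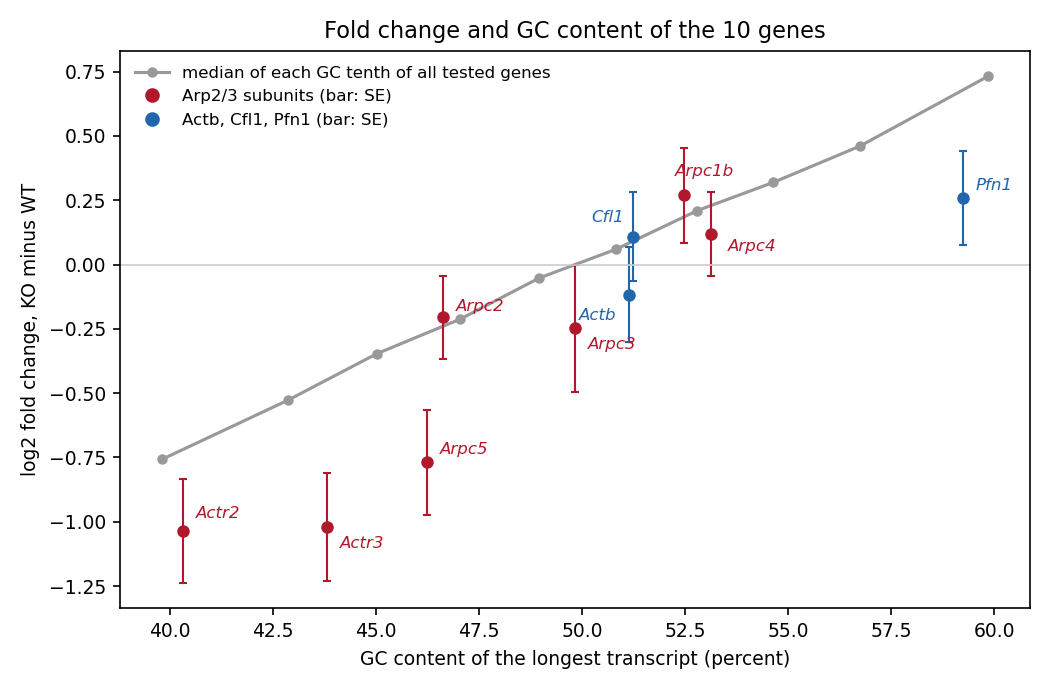
Log2 fold change, KO minus WT (vertical axis), of the 10 genes against the GC content of their longest transcript (horizontal axis, percent); bars are standard errors, and grey points are the median fold change of all tested genes in deciles of GC content. Actr2, Actr3, Arpc5 and Pfn1 lie furthest under the grey line, Arpc3, Actb and Arpc4 lie under it by less, and Arpc2, Arpc1b and Cfl1 lie close to it.

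The mean of the 7 subunits' centred log2 values was 0.15, 0.07 and 0.27 in WT and -0.10 and -0.40 in KO. Of 10541 other genes with a mean of at least 100 normalized reads, Reep3, Rpe, Tmem183a and Anp32e were among those that tracked it most closely over the 5 libraries, with Pearson r of 0.998 to 1.0, and 17.2% of the genes had an r over 0.9. These r describe 5 libraries that share depth and GC differences and carry no test.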

How the data were processed

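RNA of sorted HSCs (5 libraries, SMART-Seq v4) was sequenced. Per the submitters' processing notes, STAR, featureCounts and DESeq2 were used with mm10; versions and strand setting are not given in the sources used here. The authors deposited normalized signal, reads divided by a size factor per library. All positive values (100%) were whole multiples of 1 step at a tolerance of 0.01, which gave back whole reads. A second deposited table holds the authors' own log2 fold changes and p-values and was not used. WT and KO were compared with limma 3.58.1 (R 4.3.3, mean-variance trend) on log2(value + 1), a scale that understates changes of low genes, for 13661 genes with at least 10 in at least 2 libraries, two-sided, Benjamini-Hochberg adjusted over all of them. edgeR 4.0.16 and DESeq2 1.42.0 ran on the recovered reads. DESeq2 gave adjusted p-values for 12170 genes and for 96 of the 102 related genes. Shares and sums were compared by exact permutation over 10 arrangements.

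Transcript length and GC content came from the longest transcript per symbol of GENCODE M21 on GRCm38, matched for 13515 tested genes, and promoters from RefSeq. The members and lists were chosen with earlier results of these data known. Genes outside the 10 were named as the tested paralogues, a fixed group of regulators and the lowest and highest fold change of each list; Kit, Mecom, Hlf, Procr, Mpo, Ltf, Camp, Ngp, Elane, Prtn3, Ctsg, Klf1, Hba-a1, Hba-a2, Ppbp, Itga2b, Itgb3, Ptprc, Cd48 and Ucp1 come from the marker lists. A further gene that the rule on likeness names is not reported here. Every pair of libraries differed by more than counting error (lowest chi-square per degree of freedom 32.6). The kit adds no molecular identifiers, so a read is not 1 molecule.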

Additional observations from a re-analysis of the deposited data

How the results depend on the processing

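In 18 of 20 alternatives at most 0.0439% of all genes passed, and the 10 genes had 0 calls. DESeq2 called 3 of the 10 (Actr2, Actr3 and Arpc5) and 18.7% of all genes. The fit without KO 2 leaves 1 KO library, and these 3 were then at -1.24, -1.31 and -1.03 on the log2 scale. The related genes had 0 calls in 18 of 20 alternatives, 16 with DESeq2 (16.7%, beside 18.7% of all genes) and 26 without KO 2 (25.5%, beside 22.1%), a range of 0 to 26 over single libraries left out. The median log2 fold change of the 10 was -0.16, ran from -0.19 to 0.012 with 1 library left out (0.012 without KO 3), and was -0.27 with length and GC trend removed together with the replicate block. The summed subunit level was lower in KO under 14 of 14 alternatives, from -0.31 to -0.17 on the log2 scale. Actr2, Actr3 and Arpc5 were lower in KO under all 20, with adjusted p from 4.98e-04, 9.79e-04 and 0.0119 to 0.55, 0.451 and 0.5002.

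Signs turned for Arpc3 without KO 3 (0.11, and -0.61 without KO 2); with length and GC trend removed for Arpc2 (0.036), Arpc4 (-0.13), Cfl1 (-0.0016) and Pfn1 (-0.43); and with the replicate block added for Arpc1b (-0.017), Arpc2 (0.0056), Arpc4 (-0.16), Cfl1 (-0.026) and Pfn1 (-0.41). The cause was not tested. No share changed direction with another transcript length, though the Arpc5 share in its pair with Arpc5l differed by -9.76 points with the RefSeq-matched length, beside -4.25 with the longest transcript and -4.61 with the union of exons. The replicate block alone left 0 of the 10 called, with Actr2 at -1.05 (adjusted p = 0.156), a median of -0.18 and a sum at -0.26. Numbers 2 and 3 are shared by both groups, and the labels do not say whether they pair libraries. Deviations of same-numbered libraries from their group means correlated at -0.06 and -0.18. With 2 KO libraries the KO deviations mirror each other, so these values cannot decide on a pairing. The number was used only in the alternatives with a replicate block. The sum was not computed under other tools, array weights or filters.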
